A study of Mus musculus with 8 samples.

Results

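The 33 genes described here drive or mark the cell division cycle. They were chosen by name, and all probe sets that the platform annotation pairs with exactly 1 of them were taken from the deposited array table, which gave 56 probe sets for 31 genes, of 22690 probe sets and 12393 genes in all. Ccnb1 and Cdkn3 had no such probe set, and 1 probe set that names Foxm1 together with other genes was left out. Liver RNA came from 4 wild-type (WT) and 4 TrxR1/Gsr-null mice, all female, 4 weeks of age and of C57BL/6J background, with 1 Affymetrix 3′ expression array for each. Each array is labelled as a biological replicate. The null livers lack, per their label, TrxR1 (encoded by Txnrd1), the cytosolic thioredoxin reductase, and Gsr, glutathione reductase. The alleles, any Cre driver and the cells in which deletion took place were not stated in the labels, and no group received a treatment. Values are log2 expression after GCRMA, a difference is null minus WT on that scale, and a fold is 2 raised to that difference. A gene was called when its adjusted p from limma, with Benjamini-Hochberg adjustment over 7534 genes, was below 0.05.

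Cells enter S phase when cyclin E and its kinase act on licensed replication origins, where the Mcm2 to Mcm7 proteins form the ring helicase that opens DNA and Pcna is the clamp that holds the polymerases. Entry into mitosis needs cyclins A and B with Cdk1, and the passage through it needs the Aurora and Polo kinases, the checkpoint kinases Bub1 and Bub1b, motor proteins and the ubiquitin ligase arm of Cdc20 and Ube2c, which ends mitosis by destroying cyclin B. Most of these transcripts are made only in cycling cells, so in adult liver, where hepatocytes rest, they are scarce. The liver of a young mouse is still growing, and its hepatocytes divide and become polyploid. In whole liver RNA, a change in how many cells cycle and a change in transcript per cycling cell cannot be told apart.

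The targeted genes were measured first. The Gsr mean was 7.16 ± 0.09 (SD, n = 4) for WT against 6.01 ± 0.22 for null livers (adjusted p = 0.00397, limma). Txnrd1 averaged 9.82 ± 0.17 and 11.92 ± 0.19, higher in the livers labelled null (adjusted p = 0.000115, limma). Where these probe sets lie relative to the deleted parts was not stated, and one outside them would not check the labels. The arrays' median log2 values lay between 3.56 and 3.785. WT replicates 3 and 4 had narrower distributions, with interquartile ranges of 3.97 and 3.74 against 4.31 to 4.44 on the other 6 arrays. As a measure of RNA integrity, the 3′ probe set of Actb exceeded its 5′ probe set by 1.498 and 1.57 on those arrays and 1.76 on null replicate 3, and by 1.01 to 1.17 on the others. Hepatocyte transcripts dominated as the tissue label says, with Alb at 14.32 ± 0.30 in WT and 13.85 ± 0.49 in the null livers (SD, n = 4 each).

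Of the 31 measured genes, 27 passed the filter on low values, which removed the lowest 40% of genes by mean over the 8 arrays (log2 up to 3.38, the low-value limit) unless at least 4 arrays exceeded that limit. Aurka passed only through the rule on 4 arrays. Foxm1, Cdc25c, Bub1b and Cenpe did not pass, and Cdc25c and Cenpe were under the limit on all 8 arrays. Above the limit on all 8 arrays were 16 genes, on all 4 null arrays 26 and on all 4 WT arrays 17.

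With all 8 arrays, 1 of the 27 genes, Ccne2, was called higher and none lower, beside 4.47% of all 7534 genes called higher and 2.15% called lower. Differences were positive in 25 of the 31 genes, with a median of 0.60, against 49.5% of all 12393 genes and a median of -0.0030. Among the 7534 genes that passed, 60.1% of differences were positive, with a median of 0.096. At an unadjusted limma p below 0.05 there were 5 higher, Ccne2, Mcm2, Mcm4, Pcna and Nusap1, and 0 lower, beside 14.9% and 7.92% of all genes. Groups without overlap were found in 1 gene higher in the null livers, again Ccne2, and in 0 lower, where all genes gave 10.7% and 5.84%. Of all calls 67.5% were higher, and 53.6% after a further quantile normalization, under which the median of the 31 differences was 0.46.

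The spread within WT was the other feature of these genes. WT replicate 1 held the highest of the 8 values in 20 of the 31 genes, against 12.9% of all genes, and WT replicates 2 and 3 the lowest in 10 and 15. The SD over the 4 WT livers exceeded that over the 4 null livers in 26 of 31 genes, against 65.7% of all genes, with a median SD of 0.77 in WT and 0.27 among null livers (0.31 and 0.23 over all genes). The null livers lay close together. In most mitosis genes, and in Mki67, Top2a and Foxm1, they lay between WT replicate 1 above and the other WT livers below. No S phase gene had this order.

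**Figure D1:**
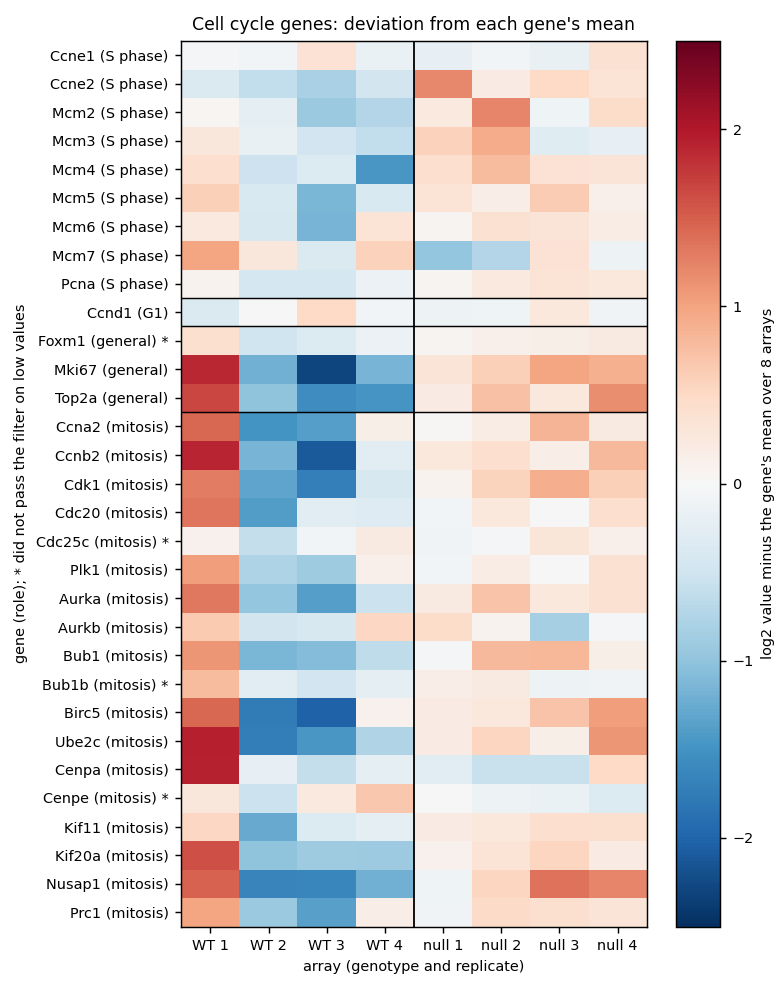
Colour gives the log2 value of each of 31 genes on each array minus that gene's mean over the 8 arrays, with genes in rows grouped by role and arrays in columns by genotype and replicate. Mitosis genes are high in WT replicate 1 and low in WT replicates 2 and 3, and the 4 null livers lie close together near or above the mean.

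Among S phase genes cyclin E2 was higher in the null livers, a call that rested on WT replicates 2 and 3, and no helicase subunit was called. Of 9 genes, all of which passed the filter, 1 was called higher and 0 lower, 7 differences were positive and the median difference was 0.50. All 4 null livers exceeded WT replicates 2, 3 and 4 in 5 of these genes, a pattern that 15.6% of all genes passing the filter showed.

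Ccne2 encodes cyclin E2, a partner of Cdk2 at the start of S phase. It measured 3.56, 3.30, 3.11 and 3.45 in WT replicates 1 to 4 and 5.12, 4.11, 4.40 and 4.24 in null replicates 1 to 4. Every null value lay above every WT value, and null replicate 1 was the highest. The means were 3.35 ± 0.19 and 4.47 ± 0.45 (SD, n = 4 each), a difference of 1.11 ± 0.24 (SE), 2.16-fold, with adjusted p = 0.0223 (limma). The WT mean and 2 WT values were under the low-value limit, so the fold depends on how GCRMA estimated background. The call was lost without WT replicate 2 (adjusted p = 0.0527) or WT replicate 3 (adjusted p = 0.0681) and ranged from adjusted p = 0.0295 upward with an array left out. It was also lost without WT replicates 3 and 4 together (adjusted p = 0.0941) and within either pair of replicates. Its relative Ccne1, cyclin E1, had means of 3.83 ± 0.23 (WT) and 3.79 ± 0.27 (null), with groups that overlapped (adjusted p = 0.938, limma).

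Mcm4, a subunit of the Mcm helicase, was represented by a pair of probe sets that both stood higher in the null livers. The one used for the gene measured 6.72, 5.79, 5.96 and 4.84 in WT and 6.73, 7.09, 6.66 and 6.63 in null replicates 1 to 4. Only WT replicate 1 reached the null range. The difference was 0.95 ± 0.34 (SE), 1.93-fold, and was not called (adjusted p = 0.130, limma). The other probe set, of a kind that can match several transcripts, measured 5.47, 5.03, 4.42 and 3.88 in WT and 7.05, 6.75, 6.00 and 6.15 in the null livers. Its groups did not overlap, and it differed by 1.79, 3.45-fold (adjusted p = 0.0299 over 22626 probe sets, limma). Of the 56 probe sets, 2 were called higher in that fit, this one and the Ccne2 probe set, and 0 lower, beside 2.09% of all probe sets called higher. With the mean of both probe sets the gene Mcm4 was called (adjusted p = 0.0341), as it was without WT replicate 1 (adjusted p = 0.0327).

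Mcm2, another helicase subunit, measured 4.37, 4.09, 3.38 and 3.59 in WT and 4.57, 5.54, 4.20 and 4.78 in null replicates 1 to 4. The groups overlapped in WT replicate 1 and null replicate 3 alone. The difference was 0.92 ± 0.32 (SE, adjusted p = 0.116, limma), and it was called with replicates 1 and 2 against replicates 3 and 4 as a block (adjusted p = 0.0343). The remaining helicase subunits apart from Mcm7 differed in the same direction without a call, Mcm5 by 0.65 ± 0.32, Mcm3 by 0.50 ± 0.31 and Mcm6 by 0.49 ± 0.31 (SE). Mcm6 measured 8.41, 7.76, 7.01 and 8.52 in WT and 8.24, 8.56, 8.50 and 8.36 in the null livers, so WT replicates 1 and 4 lay within the null range. A second Mcm6 probe set, ending in _x_at, differed by 1.26 ± 0.42 (SE, adjusted p = 0.171 over all probe sets, limma). In it WT replicate 4, at 6.18, lay below every null liver and WT replicate 1 overlapped them. The Mcm3 probe sets disagreed in sign, with differences from -0.10 to 0.53.

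Pcna was the brightest of the S phase genes. It measured 10.24, 9.71, 9.69 and 9.99 in WT and 10.22, 10.38, 10.49 and 10.41 in null replicates 1 to 4. WT replicate 1 overlapped with null replicate 1, and the other WT livers lay below all null livers. The difference was 0.47 ± 0.18 (SE), 1.39-fold, and was not called (adjusted p = 0.164, limma).

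Mcm7 had the opposite sign to the other helicase subunits. It measured 8.23, 7.53, 6.90 and 7.84 in WT and 6.28, 6.52, 7.61 and 7.12 in null replicates 1 to 4. Null replicates 1 and 2 were lower than every WT liver, while null replicates 3 and 4 lay within the WT range. The difference was -0.74 ± 0.35 (SE, adjusted p = 0.243, limma), and all 4 Mcm7 probe sets had negative differences, from -0.74 to -0.21. Within replicates 1 and 2 alone Mcm7 was the single member called lower, by -1.48 (adjusted p = 0.0319, limma), beside 3.13% of all genes. Within replicates 3 and 4 alone its difference was 0.00.

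**Figure D2:**
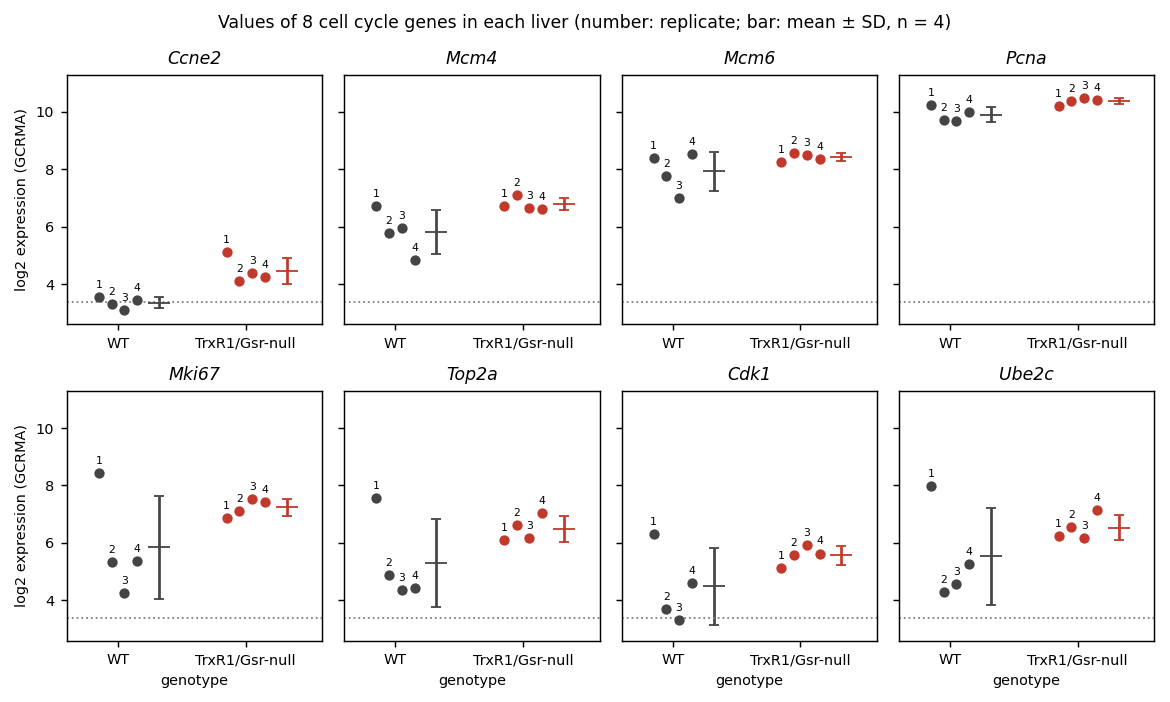
Each panel gives the log2 expression of 1 gene in the 4 WT and the 4 TrxR1/Gsr-null livers, with points numbered by replicate, bars for the mean ± SD (n = 4) and a dotted line at the low-value limit of 3.38. The S phase genes in the upper row vary less within WT than the mitosis and proliferation genes in the lower row, where WT replicate 1 stands above all null livers and the other 3 WT livers below them.

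The promoters of S phase genes are known to bind E2F factors. The RefSeq table used here (build GRCm38.p6) holds the 250 bases before the start of 25 of the 33 genes, in 27 promoters. These windows were searched on both strands for the E2F site as TTTCCCGC, TTTGGCGC or TTTCGCGC. It was present in 3 of 8 promoters of S phase genes (Mcm5, Mcm6 and 1 of the 2 of Mcm7), in 1 of 17 of mitosis genes (Cdk1) and in 1.53% of all 32851 promoters of the table. Mcm5 (chr8:75109259-75109508, + strand) and Mcm6 (chr1:128359706-128359955, - strand) are shown because they hold more E2F letters than any other of the 27. Capitals mark E2F sites and the CCAAT letters described further on, and in both promoters an E2F match overlaps another on the opposite strand.
Mcm5: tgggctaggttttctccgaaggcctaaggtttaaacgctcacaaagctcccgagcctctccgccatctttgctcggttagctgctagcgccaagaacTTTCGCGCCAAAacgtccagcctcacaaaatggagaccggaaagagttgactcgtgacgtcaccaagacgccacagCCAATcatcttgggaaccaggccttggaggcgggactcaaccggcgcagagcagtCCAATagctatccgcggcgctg
Mcm6: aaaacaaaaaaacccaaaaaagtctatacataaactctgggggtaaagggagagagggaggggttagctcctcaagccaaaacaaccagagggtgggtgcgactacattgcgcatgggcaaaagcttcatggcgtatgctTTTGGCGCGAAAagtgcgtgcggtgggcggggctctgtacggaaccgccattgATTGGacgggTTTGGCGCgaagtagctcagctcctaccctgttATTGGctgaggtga

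In Mcm6 the matches lay 110 to 99 bases and 47 to 40 bases before the start. A match of letters is a description of the sequence, and binding was not measured.

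Ccnd1 encodes cyclin D1, which carries growth signals into the cycle before S phase. It measured 7.38, 7.75, 8.24 and 7.67 in WT and 7.62, 7.63, 7.999 and 7.66 in null replicates 1 to 4. The groups overlapped fully, and the difference was -0.03 ± 0.21 (SE, adjusted p = 0.952, limma). WT replicate 1, which was highest for most mitosis genes, was the lowest of the 8 livers here.

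Mki67, Top2a and Foxm1 mark or drive proliferation in general. Mki67, the antigen of the Ki-67 stain, measured 8.43, 5.33, 4.24 and 5.38 in WT and 6.85, 7.13, 7.53 and 7.43 in null replicates 1 to 4. The null livers lay close together, below WT replicate 1 and above the other WT livers. The means were 5.84 ± 1.80 and 7.23 ± 0.31 (SD, n = 4 each), and the difference of 1.39 ± 0.72 (SE) was not called (adjusted p = 0.282, limma). Without WT replicate 1 the difference was 2.25, 4.77-fold (adjusted p = 0.00351, limma), and without WT replicate 3 it was 0.86 (adjusted p = 0.542).

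Top2a, the topoisomerase that untangles replicated chromosomes, had the same order. It measured 7.57, 4.89, 4.36 and 4.43 in WT and 6.10, 6.64, 6.16 and 7.06 in null replicates 1 to 4. WT replicate 1 was again above every null liver and the other 3 below. The difference was 1.18 ± 0.63 (SE, adjusted p = 0.302, limma), 1.93 without WT replicate 1 (adjusted p = 0.00437, limma) and 0.86 without WT replicate 3 (adjusted p = 0.535). With transcript-specific probe sets only, the difference was -0.29 (adjusted p = 0.574, limma). That probe set read 1.42 to 2.47, under the low-value limit on all 8 arrays, so its sign says little about Top2a. Foxm1, a transcription factor that drives genes of mitosis, stayed near background, at 3.01 ± 0.39 in WT and 3.29 ± 0.06 in the null livers (SD, n = 4 each), with adjusted p = 0.497 over 12393 genes.

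The mitosis genes gave no call with all 8 arrays. Of 20 genes 18 were measured and 15 passed the filter, of which 0 were called, and 1, Nusap1, had an unadjusted limma p below 0.05. Differences were positive in 15 of 18, with a median of 0.62. In all 15 that passed, WT replicate 1 held the highest of the 8 values of the probe set used, a place it took in 16.8% of all genes that passed. Second probe sets of Aurkb and Prc1 were also highest there. A second probe set of Ccna2 was highest in null replicate 3, and one of Cdc20 in WT replicate 4. WT replicate 1 exceeded the mean of the other WT livers by a median of 2.17 over the 18 genes, against 0.04 over all genes and 0.21 over those that passed. The WT SD was larger than the null SD in 18 of 18.

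Cdk1, the kinase that starts mitosis, measured 6.30, 3.701, 3.32 and 4.62 in WT and 5.12, 5.59, 5.94 and 5.63 in null replicates 1 to 4. WT replicates 2 and 3 were lowest, near the low-value limit, and WT replicate 1 was above all null livers. The difference was 1.08 ± 0.55 (SE, adjusted p = 0.272, limma) with all arrays, 1.69 without WT replicate 1 (adjusted p = 0.0153, limma) and 0.69 without WT replicate 3 (adjusted p = 0.527).

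By the probe sets used for the genes, its cyclins were also highest in WT replicate 1. Ccnb2, cyclin B2, measured 6.61, 3.55, 2.601 and 4.42 in WT and 4.96, 5.13, 4.87 and 5.52 in the null livers. Ccna2, cyclin A2, measured 6.30, 3.37, 3.47 and 4.997 in WT and 4.89, 5.04, 5.70 and 5.08 in the null livers. For Ccna2 the second highest WT value, that of replicate 4, reached into the null range, and for Ccnb2 it did not. A second Ccna2 probe set measured 5.21, 3.85, 3.99 and 4.56 in WT and 4.75, 4.66, 5.62 and 5.39 in the null livers. In that probe set null replicate 3 was highest and WT replicate 4 lay below every null liver (difference 0.70 ± 0.33 SE). Neither was called with all arrays (adjusted p = 0.513 for Ccnb2 and 0.545 for Ccna2, limma), and without WT replicate 1 Ccnb2 was (adjusted p = 0.0364) and Ccna2 was not (adjusted p = 0.0919).

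Ube2c and Cdc20, which act in the ubiquitin ligase that ends mitosis, were not called. Ube2c, the conjugating enzyme, measured 7.97, 4.31, 4.57 and 5.27 in WT and 6.24, 6.56, 6.17 and 7.14 in null replicates 1 to 4. Its WT values spanned more than 3 log2 units and its null values less than 1. Cdc20, the activator, measured 7.47, 4.72, 5.86 and 5.80 in WT and 6.06, 6.39, 6.14 and 6.54 in the null livers. WT replicates 3 and 4 of Cdc20 lay just under the null range, with a difference of 0.32 ± 0.47 (SE, adjusted p = 0.736, limma), while that of Ube2c was 1.00 ± 0.68 (adjusted p = 0.419, limma). A second Cdc20 probe set, ending in _x_at, differed by 0.80 ± 0.53 (SE), and whether the 2 genes differ from each other was not tested.

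The Aurora, Polo and checkpoint kinases were dim. Aurka, which organizes spindle poles, measured 4.59, 2.29, 1.89 and 2.72 in WT and 3.48, 3.97, 3.54 and 3.64 in null replicates 1 to 4, so 3 WT livers were under the low-value limit and all null livers above it. Bub1, which monitors attachment of chromosomes, measured 5.03, 2.78, 2.84 and 3.29 in WT and 3.90, 4.75, 4.76 and 4.08 in the null livers. In both, WT replicate 1 exceeded every null liver and the other 3 WT livers were below them, and the differences of 0.78 ± 0.49 and 0.89 ± 0.46 (SE) were not called (adjusted p = 0.382 and 0.292, limma). Plk1, the Polo kinase, differed by 0.25 ± 0.38 and Aurkb, which acts at centromeres and in cell separation, by -0.16 ± 0.34 (SE). The pair of Aurkb probe sets disagreed in sign, with -0.16 and 0.79. Bub1b had means of 3.25 ± 0.57 (WT) and 3.33 ± 0.18 (null) and Cdc25c, a phosphatase that activates Cdk1, 2.77 ± 0.36 and 2.94 ± 0.17 (SD, n = 4 each), both too dim to pass the filter.

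Genes of the spindle and of cell separation included the member with the largest difference. Nusap1, which binds spindle microtubules, measured 6.51, 3.38, 3.41 and 3.83 in WT and 4.93, 5.58, 6.38 and 6.26 in null replicates 1 to 4. Null replicates 3 and 4 came close to WT replicate 1, and the other 3 WT livers lay more than 1 log2 unit below all null livers. The difference was 1.51 ± 0.65 (SE), 2.84-fold (adjusted p = 0.201, limma), and 2.25 without WT replicate 1 (adjusted p = 0.0064), with adjusted p up to 0.392 without another array. Kif20a, a motor of cell separation, measured 6.41, 3.797, 3.91 and 3.89 in WT and 4.90, 5.15, 5.34 and 5.01 in the null livers, a difference of 0.60 ± 0.51 (SE, adjusted p = 0.532, limma). Its WT replicate 1 stood 2.54 above the mean of the other WT livers. Kif11, the motor that separates spindle poles, differed by 0.64 ± 0.32 and Prc1, which bundles microtubules of the midzone, by 0.56 ± 0.44 (SE), neither called.

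Birc5 (survivin), a partner of Aurkb, measured 7.85, 4.67, 4.40 and 6.52 in WT and 6.61, 6.68, 7.12 and 7.46 in null replicates 1 to 4. WT replicates 2 and 3 were about 2 log2 units below the null livers, and WT replicate 4 was just under them. The difference was 1.11 ± 0.66 (SE, adjusted p = 0.357, limma). The centromere genes went the other way or stayed dim. Cenpa, the histone of centromeres, measured 8.25, 6.12, 5.72 and 6.09 in WT and 6.06, 5.77, 5.77 and 6.83 in the null livers, and the negative difference of -0.44 ± 0.50 (SE) turned to 0.13 without WT replicate 1. Cenpe, a motor of the kinetochore, had means of 2.81 ± 0.51 (WT) and 2.48 ± 0.14 (null) (SD, n = 4 each), under the low-value limit.

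**Figure D3:**
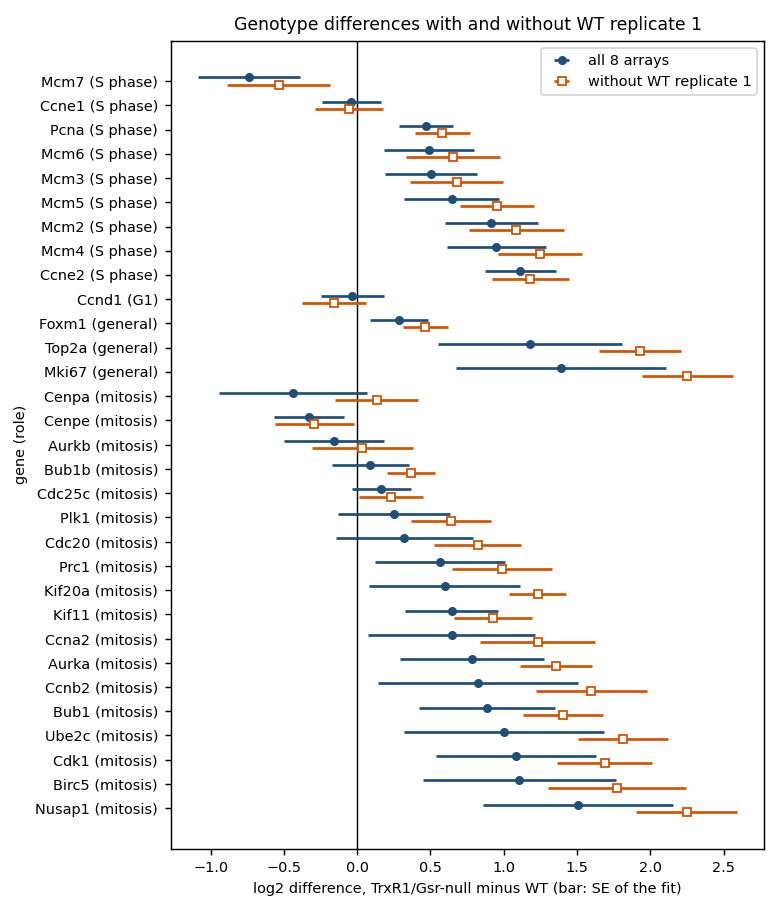
Points give each gene's log2 difference, TrxR1/Gsr-null minus WT, with bars for the SE of the limma fit, over all 8 arrays (filled circles) and without WT replicate 1 (open squares). Leaving out that array moved every mitosis gene to the right and shortened most of their error bars, while Ccne2 moved from 1.11 to 1.18. The shift was fixed in advance, because WT replicate 1 exceeded the mean of the other WT livers in each mitosis gene.

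The count of calls changed most with that WT array, and the Ccne2 call with WT replicates 2 and 3. Without WT replicate 1, 11 of the 27 genes were called higher and 0 lower, beside 5.14% and 1.73% of all genes. They were Ccne2, Mcm4, Mki67, Top2a, Cdk1, Ccnb2, Aurka, Bub1, Kif20a, Nusap1 and Ube2c, and their folds ran from 2.27 for Ccne2 to 4.77 for Mki67. Aurka had passed the filter only through the rule on 4 arrays. Without WT replicate 1 the arrays of Aurka and of Bub1 above the low-value limit were the 4 null arrays alone. The places of Aurka and Bub1 in this count thus follow in part from the filter. The median difference of the 31 genes was then 0.96 (0.01 over all genes and 0.16 over those that passed). WT replicate 1 stood out in these same values. A higher difference without it was thus fixed in advance wherever it exceeded the mean of the other WT livers. Without WT replicate 2 or WT replicate 3 no member was called, with medians of 0.40 and 0.38, and without any one of the other 5 arrays Ccne2 alone was called. All 4 null livers exceeded WT replicates 2, 3 and 4 in 17 of the 27 genes, beside the 15.6% of all genes given for that pattern.

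**Figure D4:**
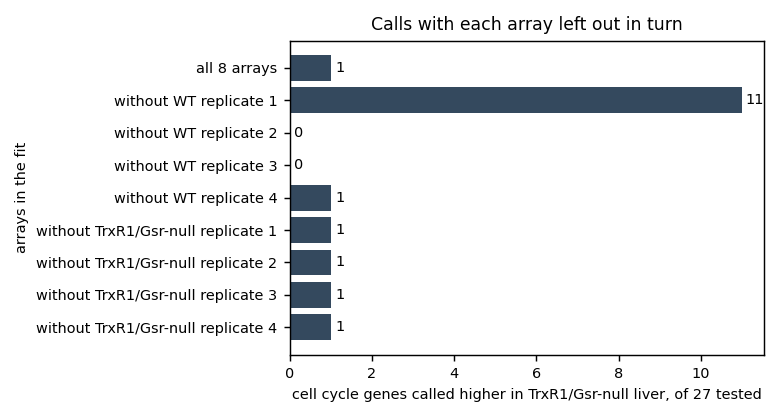
Bars count the cell cycle genes called higher in TrxR1/Gsr-null liver, of 27 tested, with all 8 arrays and with each array left out in turn. The count is 11 without WT replicate 1 and 0 or 1 in every other fit shown.

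WT replicates 3 and 4 had narrower distributions, so the comparison was also made within replicates 1 and 2 and within replicates 3 and 4. Within replicates 1 and 2 alone, where WT is represented by its highest and one of its lowest livers, the median difference of the 31 genes was 0.17 and none was called higher. Within replicates 3 and 4 alone it was 0.96, and Mki67, Nusap1 and Top2a were called higher, beside 2.15% of all genes. WT replicates 3 and 4 also had the higher Actb end differences among WT, a split that Gapdh did not show. Without both of these arrays the median was 0.25 and no member was called. The part of array quality in these differences was not tested. WT replicate 1 itself had a median of 3.76, an interquartile range of 4.44 and an Actb difference of 1.02, within the range of the other arrays or at its edge.

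Many promoters of mitosis genes are known to carry CCAAT boxes, bound by NF-Y, and the cell cycle homology region (CHR), through which the DREAM complex and later B-Myb and Foxm1 act. In the 250 bases before the start, the CHR letters TTTGAA or TTCGAA were present on either strand in 8 of 17 promoters of mitosis genes, in 2 of 8 of S phase genes and in 17.1% of all promoters of the table. CCAAT was present in 15 of 17 and 7 of 8, against 33.8% of all promoters. All 8 of the mitosis promoters with a CHR also had CCAAT, a combination found in 6.02% of all promoters. Because the 11 genes called without WT replicate 1 include them, the promoters of Mki67 (chr7:135716380-135716629, - strand), Top2a (chr11:99024190-99024439, - strand), Cdk1 (chr10:69352913-69353162, - strand) and Ube2c (chr2:164769679-164769928, + strand) are shown, with Cdc20 (chr4:118437344-118437593, - strand), a mitosis gene not called without that array, beside them. Capitals mark CHR, CCAAT and E2F letters on either strand.
Mki67: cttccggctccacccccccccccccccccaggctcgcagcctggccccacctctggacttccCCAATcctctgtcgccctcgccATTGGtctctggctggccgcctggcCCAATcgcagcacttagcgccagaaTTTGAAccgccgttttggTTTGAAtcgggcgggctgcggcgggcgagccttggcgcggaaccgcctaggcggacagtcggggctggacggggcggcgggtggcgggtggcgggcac
Top2a: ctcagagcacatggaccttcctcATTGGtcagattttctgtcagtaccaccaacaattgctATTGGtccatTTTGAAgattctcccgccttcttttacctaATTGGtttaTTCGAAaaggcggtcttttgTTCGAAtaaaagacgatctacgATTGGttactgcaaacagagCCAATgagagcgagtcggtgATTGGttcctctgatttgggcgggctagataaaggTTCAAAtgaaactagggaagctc
Cdk1: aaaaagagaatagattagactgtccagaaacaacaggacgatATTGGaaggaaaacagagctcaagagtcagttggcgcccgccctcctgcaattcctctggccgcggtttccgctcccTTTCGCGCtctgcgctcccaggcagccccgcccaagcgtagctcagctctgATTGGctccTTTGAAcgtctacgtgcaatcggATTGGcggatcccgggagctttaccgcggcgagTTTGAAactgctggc
Ube2c: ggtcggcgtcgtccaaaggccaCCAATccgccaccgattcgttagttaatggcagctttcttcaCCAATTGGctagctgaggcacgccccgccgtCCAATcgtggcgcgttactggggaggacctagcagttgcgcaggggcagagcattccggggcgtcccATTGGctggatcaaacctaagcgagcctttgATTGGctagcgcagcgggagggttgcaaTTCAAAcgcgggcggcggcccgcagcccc
Cdc20: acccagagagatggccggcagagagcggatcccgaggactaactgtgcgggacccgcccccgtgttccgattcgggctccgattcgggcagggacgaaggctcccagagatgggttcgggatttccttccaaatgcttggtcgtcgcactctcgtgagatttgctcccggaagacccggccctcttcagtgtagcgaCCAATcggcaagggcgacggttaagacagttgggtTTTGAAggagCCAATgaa

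The CHR letters nearest the start lay 15 to 10 bases before it in Cdk1, 18 to 13 in Cdc20 and 29 to 24 in Ube2c, each after a CCAAT box farther upstream. A second CHR match of Cdk1 lay 71 to 66 bases before the start. Top2a held several CHR and CCAAT matches, and in Ube2c a pair of CCAAT matches on opposite strands overlapped. The Cdc20 promoter held CHR and CCAAT letters as the other 4 did.

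Other genes of the cycle, from lists chosen with earlier results of these data known, are given next. Of 56 further mitosis and cytokinesis genes 50 were measured and 39 passed the filter, of which 0 were called. At an unadjusted limma p below 0.05 there were 12 higher and 1 lower, beside 14.9% and 7.92% of all genes that passed. Differences were positive in 41 of 50, with a median of 0.37, beside 49.5% of all genes and 60.1% of those that passed. Without WT replicate 1, 12 of the 39 were called higher, beside 5.14% of all genes that passed. Among them were Ttk, Cep55 and Cenpf, in which only null arrays then exceeded the low-value limit. Their places in the count follow in part from the filter. With the replicate block Ect2 was called higher and Pttg1, securin, lower (difference -0.78, adjusted p = 0.0456 against 0.16 without the block, limma); Pttg1 is named after its values were seen. The 3 with the smallest p were Ect2, Kpna2 and Zwint. Ect2, which acts in cell separation, measured 6.39, 3.66, 3.77 and 3.59 in WT and 6.16, 6.36, 6.48 and 6.58 in null replicates 1 to 4. Its WT replicate 1 fell inside the null range and the other 3 WT livers more than 2 log2 units below it (difference 2.04 ± 0.55 SE, adjusted p = 0.0543, and 0.0467 with the replicate block, limma). Kpna2, a nuclear import adaptor, differed by 0.81 ± 0.22 and Zwint, of the kinetochore, by 0.55 ± 0.17 (SE), in both with no overlap between the groups and without a call.

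Of 41 further DNA replication genes 37 were measured and 31 passed, of which 1 was called higher and 0 lower. That is near the 4.47% of all genes that passed called higher and the 2.15% called lower. Differences were positive in 30 of 37, with a median of 0.25, beside 49.5% of all genes and 60.1% of those that passed. With the replicate block Mcm10, which helps start replication, was also called lower (difference -0.85, adjusted p = 0.0405 against 0.0852 without the block, limma), and it is named after its values were seen. Orc4, a subunit of the origin recognition complex, was the gene called. It measured 5.59, 5.96, 4.87 and 3.98 in WT and 6.45, 6.79, 7.09 and 6.62 in null replicates 1 to 4, without overlap (3.12-fold, adjusted p = 0.0315, limma). The call was lost without WT replicate 3 or any single null replicate (adjusted p up to 0.0852). It was also lost without WT replicates 3 and 4 together and within replicates 1 and 2 (adjusted p = 0.061 and 0.072, limma). Restricted to probe sets specific to 1 transcript, the difference was 0.63 in place of 1.64 and was not called (adjusted p = 0.0607, limma).

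Of 34 regulators of S phase entry 30 were measured and 24 passed, of which 4 were called higher and 0 lower. Beside this stand the 4.47% and 2.15% of all genes that passed. The count was 2 without null replicate 1, 3 or 4 and 1 within replicates 3 and 4. With the replicate block Cks1b, a subunit of Cdk complexes, was called as well (difference 1.10, adjusted p = 0.0217 against 0.0952 without the block, limma); it was chosen after its values were seen. The 4 were E2f6, a repressor of the E2F family, Cdkn2b, an inhibitor of Cdk4 and Cdk6, Tfdp1, the partner of E2F factors, and Rb1, the retinoblastoma protein that holds E2F in check. E2f6 measured 4.45, 4.17, 4.26 and 5.001 in WT and 5.67, 6.03, 5.70 and 6.40 in null replicates 1 to 4 (2.79-fold, adjusted p = 0.00611, limma). Cdkn2b measured 2.61, 2.77, 2.61 and 2.69 in WT and 4.81, 3.97, 3.61 and 4.89 in the null livers (3.13-fold, adjusted p = 0.00779, limma). Neither set of groups overlapped, and every WT value of Cdkn2b was under the low-value limit. Cdkn2b thus passed the filter through its null arrays alone, so its place in the count of calls follows in part from the filter. E2f6 and Cdkn2b stayed below the threshold whichever single array was dropped, and both calls were lost within replicates 3 and 4 alone (adjusted p = 0.101 and 0.105, limma). Tfdp1 rose 2.05-fold (adjusted p = 0.0223, limma) and Rb1 3.33-fold (adjusted p = 0.0262, limma). The Tfdp1 call was lost without WT replicate 2 or null replicate 1, 3 or 4 (adjusted p up to 0.0633), and that of Rb1 without WT replicate 3 or any single null replicate (adjusted p up to 0.0782). Without WT replicate 1, 7 of the 24 genes, Cdkn2b among them, were called higher, beside 5.14% of all genes that passed. WT replicate 1 held the highest of the 8 values in 4 of the 30 regulators measured, near the 12.9% of all genes.

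**Figure D5:**
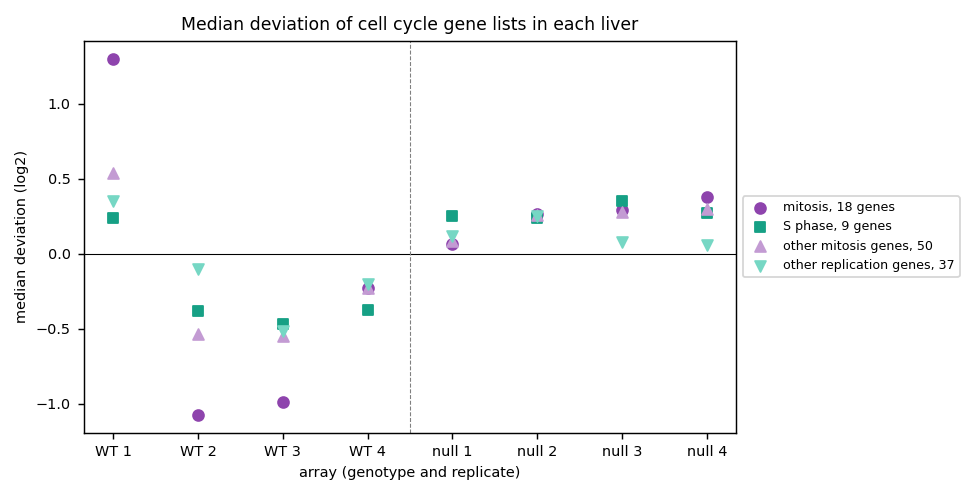
Each point gives, for 1 array, the median over a list's genes of the log2 deviation from the gene's mean over 8 arrays, for 18 mitosis and 9 S phase genes and for 50 and 37 further genes of the same kinds. In WT the mitosis genes run from -1.07 in replicate 2 to 1.30 in replicate 1, and in the null livers from 0.06 to 0.38.

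Over the lists, WT replicates 1 to 4 had median deviations of 1.30, -1.07, -0.99 and -0.23 for the mitosis genes and null replicates 1 to 4 of 0.06, 0.27, 0.29 and 0.38. For the S phase genes the corresponding values were 0.24, -0.38, -0.47 and -0.37 in WT and 0.25, 0.24, 0.35 and 0.27 in the null livers. WT replicate 1 was thus far above the null livers for mitosis and level with them for S phase.

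Markers of other cells that can divide in liver gave these values beside the cell cycle genes. The summed linear level of 10 measured erythroid markers was 189 to 295 in WT and 596 to 1381 in the null livers, and 1 of the 4 that passed the filter was called higher, the transferrin receptor Tfrc, which many growing cells also make (9.96-fold, adjusted p = 0.000832, limma). The median deviation of these 10 genes was no higher in the null livers (-0.15 to 0.0030) than in WT (-0.040 to 0.098), and 5 of 10 differences were positive, so the sum rose through Tfrc. Of the others, Alas2 averaged 6.54 and 6.26, Slc4a1 3.57 and 3.89 and Klf1 3.62 and 3.41 in WT and null livers, none called, while Epor, Gata1, Rhag, Hba-a1 and Ermap were under the low-value limit on all 8 arrays. The sums were 62.6 to 108 in WT and 102 to 142 in the null livers for 8 neutrophil markers, 5553 to 9668 and 4900 to 6983 for 9 Kupffer cell and macrophage markers, 56.2 to 68.3 and 51.4 to 54.2 for 7 T and natural killer cell markers, and 3609 to 5358 and 3606 to 4478 for 9 B cell and plasma cell markers. For 10 endothelial markers they were 2087 to 2567 and 1876 to 2448, for 10 stellate cell and fibroblast markers 6024 to 7268 and 4882 to 6446, for 7 bile duct markers 134 to 342 and 198 to 299, and for 8 hepatocyte markers 68644 to 83075 and 44304 to 64770. Of the 8 neutrophil markers, 4 differences were positive, with a median over the list of 0.0022. Among them S100a8 differed by 1.30 ± 0.35 and S100a9 by 1.14 ± 0.38 (SE). These 2 were not called with all arrays (adjusted p = 0.0541 and 0.108, limma) and were called higher without WT replicate 1 (adjusted p = 0.00715 and 0.0111, limma). Elane, Mpo, Camp, Ngp and Ltf were under the limit on all 8 arrays. WT replicate 1 had the highest median deviation of the 8 arrays for the endothelial (0.54), stellate cell and fibroblast (0.32) and neutrophil (0.083) markers. Of these lists, 1 hepatocyte gene, Pck1, was called lower and 1 bile duct gene, Epcam, higher. The part of cell makeup in the differences of the cell cycle genes was not tested.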

How the data were processed

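Each of 8 livers gave 1 array of amplified, biotin-labelled RNA, per the labels' protocols. The deposited values are log2 expression per probe set, made by the authors with GCRMA per the submitters' processing notes; its version is not given in the sources used here. That the scale is log2 follows from the range of the values, 0.53 to 14.6. GCRMA pulls values near background together.

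Of 22690 probe sets, 64 are controls, 20380 have 1 gene symbol, 691 several and 1555 none. Symbols were updated by gene identifier (20351 matched) through a RefSeq table of GRCm38.p6, used for names only; promoter sequences come from a RefSeq table of that build. Each gene was represented by its brightest probe set by mean, taking those ending in _x_at only where there was no other. The test was that of limma 3.58.1 under R 4.3.3 (lmFit and eBayes, two-sided, Benjamini-Hochberg over the 7534 genes that passed the filter; genes that did not pass come from a fit over all 12393). The named genes are all members, and of each further list up to 4 called genes per direction with the smallest adjusted p or, with no call, the 3 with the smallest p. The members, lists and tests were chosen with earlier results of these data known.

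No 2 arrays were identical (highest correlation 0.994). Same-numbered arrays deviated from their group means together (correlations 0.22 to 0.39), so the replicate number was also fitted as a block. The sample titles give the numbers but state no pairing of livers. Over all genes that passed, 454 were called higher and 240 lower with the block, against 337 and 162 without it. Printed p-values come from the fit without the block unless the replicate block is named, and the block is given where it changed a call of a cell cycle gene. On simulated data, 4 against 4 over 7534 genes with 200 changed, 42% of changes of 1 log2 unit and 85% of those of 2 were called, and 0% of those of 0.5, so an uncalled gene may still differ. The changed genes were drawn from all that passed, which had a median WT SD of 0.35. That median was 0.77 for the members and 1.14 for the mitosis genes, so these rates need not hold for them. The number of arrays limits the precision, and p-values measure the spread between these arrays.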

Additional observations from a re-analysis of the deposited data

Results flagged for a closer look

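In 5 of 62 groups of 4 arrays examined over the 31 genes, 1 array stood apart by Dixon's ratio, the gap to its neighbour over the group's whole range, above its 95% critical value; chance gives about 1 in 20 groups, here 3.1. Of these, 4 were WT replicate 1: Kif20a (log2 6.41, ratio 0.955), Nusap1 (log2 6.51, ratio 0.857), Cenpa (log2 8.25, ratio 0.844) and Top2a (log2 7.57, ratio 0.833). The other was null replicate 3 for Ccnd1 (log2 7.999, ratio 0.905). For most other mitosis genes WT replicate 1 was also the highest value, but the remaining WT livers were spread too widely for the ratio to pass.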

How the results depend on the processing

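With the replicate number as a block, 1 member was called higher and 0 lower, as in the fit without it, and in the further lists the block added calls for Ect2 and Cks1b (higher) and for Mcm10 and Pttg1 (lower). The count of members called higher, 1 with all arrays, was 0 with the lowest 60% of genes left out (Ccne2 did not pass that filter), 2 with the mean of a gene's probe sets, 3 with array weights, 2 with replicates 1 and 2 against 3 and 4 as a block, 0 within replicates 1 and 2, 3 within replicates 3 and 4, 0 without WT replicates 3 and 4, and from 0 to 11 with an array left out. The count called lower was 1 with array weights and 1 within replicates 1 and 2, and 0 in the other fits. The medians of all, S phase and mitosis members stayed positive throughout (0.38 to 0.96, 0.40 to 0.68 and 0.29 to 1.11 with an array left out). Signs turned for uncalled genes. With an array left out, their lowest and highest differences were -0.17 and 0.0723 for Ccne1, -0.159 and 0.128 for Ccnd1, -0.093 and 0.822 for Cdc20, -0.00499 and 0.269 for Cdc25c, -0.0043 and 0.639 for Plk1, -0.337 and 0.0901 for Aurkb, -0.0543 and 0.367 for Bub1b, -0.711 and 0.132 for Cenpa. Within replicates 1 and 2 they were 0.063 for Ccnd1, -0.034 for Ccnb2, -0.075 for Plk1, 0.17 for Aurkb, -0.059 for Bub1b, 0.061 for Cenpe and -0.078 for Kif20a. Within replicates 3 and 4 they were 0.0055 for Ccne1, 0.0024 for Mcm7 and 0.39 for Cenpa. Without WT replicates 3 and 4 they were 0.032 for Ccne1, 0.16 for Ccnd1, -0.010 for Plk1, -0.21 for Bub1b and -0.0037 for Kif20a. Ccnd1 was 0.026 and Aurkb 0.32 with the mean of probe sets, and Aurkb 0.13 and Cenpe 0.014 with array weights. Top2a was -0.29 with transcript-specific probe sets only, from a probe set under the low-value limit on all 8 arrays. Apart from the changes that follow from fewer arrays or genes, the cause was not tested. Signal near background limits the dimmest genes.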
